A study of Homo sapiens with 12 samples.

Results

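The ETS (E26 transformation-specific) transcription factors described here are EHF, SPDEF, ELF3, ELF1, ELF4, ETS1, ETS2, ETV4, ETV5 and FLI1, read on every array of a study of fatty acid oxidation in breast cancer cells. All probe sets annotated with 1 of these 10 gene symbols were taken, which gave 37 of the 54675 probe sets measured. The genes were chosen by their log2 intensities over the 4 groups, the falls of EHF and SPDEF first among them, so the levels and differences of these 10 genes are given as a description, with no test. The cells were MDA231 (MDA-MB-231), an established human breast cancer line, profiled on 12 single-colour Affymetrix arrays. In the group called ETX, cells with a scrambled hairpin construct received ETX. The labels leave that abbreviation unexplained, and it is taken to mean etomoxir, which blocks carnitine palmitoyltransferase 1 (CPT1). The group called shCPT-1 carried a pGIPZ lentiviral short hairpin RNA against CPT1, whose isoform the labels do not name, and the group called shCPT-2 carried a hairpin against CPT2. The reference cells, called scramble, carried the scrambled hairpin alone. CPT1 and CPT2 act in turn to bring long-chain fatty acids into mitochondria. Each group had 3 arrays, and every group carried a hairpin construct. The sources used here give neither the number of hairpins or clones per target nor the dose and time of ETX behind the arrays. The labels do not say whether arrays of 1 group stem from separate cultures. A p-value below therefore measures the spread between arrays alone, which may be technical.

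ETS factors share a DNA-binding domain that recognises a GGAA core, and they are sorted into subfamilies by that domain and by neighbouring parts of the protein. EHF, ELF3 and SPDEF are found mainly in epithelia and are linked to differentiation of gland and duct cells, whereas ETS1, ETS2 and the PEA3 group (ETV1, ETV4, ETV5) are linked to growth factor and MAP kinase signalling, invasion and protease genes. Many ETS proteins are controlled by phosphorylation or partner proteins, which arrays of RNA do not read.

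The deposited intensities ran from 6.68 to 28791, and array medians lay between 74.9 and 77.2 (6.23 to 6.27 on the log2 scale used throughout). Probe sets were kept if they lay above the median of the array on 3 or more arrays, and the kept probe set with the highest mean stood for its gene, which left 12886 tested genes. Levels of different probe sets cannot be compared with each other, so every level below is set only against the same probe set in other groups. Arrays correlated at 0.9945 to 0.9989 within groups and at 0.974 to 0.9913 between groups. Among the targeted genes CPT1A, the liver isoform, had a log2 intensity of 8.19 ± 0.13 in shCPT-1 and 9.78 ± 0.12 in scramble (SD, n = 3 each; limma adjusted p = 1.97e-08). CPT2 had 6.41 ± 0.19 in shCPT-2 and 7.41 ± 0.09 in scramble (limma adjusted p = 5.46e-06). These genes also differed from scramble in other groups. CPT1A was higher in ETX (10.89 ± 0.09, limma adjusted p = 1.46e-06) and slightly lower in shCPT-2 (9.55 ± 0.06, limma adjusted p = 0.0318). CPT2 was higher in ETX (7.68 ± 0.04, limma adjusted p = 0.043). The mesenchymal gene VIM was high and the epithelial cadherin CDH1 lay under the medians on all 12 arrays, as did the hormone receptor gene PGR, whereas ESR1 and ERBB2, which the line is known to lack or hold at low level, lay above the medians on all 12. The actin control's 3′ minus 5′ difference, a sign of RNA quality, was 1.75 ± 0.06 in ETX, 1.73 ± 0.23 in shCPT-1, 1.68 ± 0.23 in shCPT-2 and 2.07 ± 0.27 in scramble (log2, SD, n = 3 each). Its part in the results was not tested beyond a fit that takes it as a covariate.

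Of the 37 probe sets 23 were kept, and 9 of the 10 genes had a tested value. FLI1 had none. EHF and SPDEF showed the widest differences. To show what lies before their start sites, 300-base windows from RefSeq (GRCh38.p14; 250 bases before the start and 50 after it) are printed 5′ to 3′ on the gene's strand, in lower case with every GGAA or its reverse complement TTCC in capitals. EHF has 2 such windows, at chr11:34624007-34624306 (plus strand) and chr11:34632316-34632615 (plus strand), and SPDEF has 1, at chr6:34556280-34556579 (minus strand).

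EHF window 1: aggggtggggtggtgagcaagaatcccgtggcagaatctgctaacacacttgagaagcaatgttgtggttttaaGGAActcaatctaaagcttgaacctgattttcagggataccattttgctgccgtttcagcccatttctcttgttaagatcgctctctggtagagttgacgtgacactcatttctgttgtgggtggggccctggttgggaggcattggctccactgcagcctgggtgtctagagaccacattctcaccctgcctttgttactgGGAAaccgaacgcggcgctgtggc
EHF window 2: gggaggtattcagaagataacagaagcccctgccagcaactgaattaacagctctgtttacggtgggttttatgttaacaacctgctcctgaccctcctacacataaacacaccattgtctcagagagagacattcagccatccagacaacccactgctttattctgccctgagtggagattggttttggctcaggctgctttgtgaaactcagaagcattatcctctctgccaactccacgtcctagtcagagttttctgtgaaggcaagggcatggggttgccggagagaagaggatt
SPDEF window: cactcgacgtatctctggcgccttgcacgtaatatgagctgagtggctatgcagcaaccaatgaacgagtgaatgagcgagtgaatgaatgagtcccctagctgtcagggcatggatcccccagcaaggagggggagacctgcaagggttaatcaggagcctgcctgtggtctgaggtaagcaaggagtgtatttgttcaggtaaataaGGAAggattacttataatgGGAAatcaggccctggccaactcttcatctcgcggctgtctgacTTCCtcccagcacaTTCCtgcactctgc

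The SPDEF window holds 4 cores and the windows of EHF hold 2 and 0, against a median of 3 over the 35116 windows of the table. A core on either strand was present in 95.5% of all windows and absent from 4.55%, so its presence sets no gene apart. The longer letters CCGGAA (reverse complement TTCCGG), which contain the core, occurred in 17.2% of all windows and in 0 of the 12 windows found for 6 of the 10 genes. The windows of EHF had a GC content of 51.3% and 48.3% with 8 and 3 CpG dinucleotides, and that of SPDEF had 52.0% with 8, against medians of 58.7% and 14 over all windows. The GC box GGGCGG (or CCGCCC), the AP-1 letters TGACTCA (or TGAGTCA) and the E-box CAGGTG (or CACCTG) were found in none of these 3 windows, and in 45.0%, 4.9% and 20.6% of all windows.

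EHF, an epithelial ETS factor of gland and airway lining, had the widest range of the 10 genes. On its probe set 225645_at the log2 intensity was 10.14, 10.12 and 10.06 in ETX. It was 7.82, 7.92 and 7.77 in shCPT-1. It was 6.2, 6.11 and 6.23 in shCPT-2, against 9.89, 9.92 and 9.7 in scramble. No 2 groups overlapped: ETX stood above scramble, scramble above shCPT-1, and shCPT-1 above shCPT-2, whose arrays lay under their own medians. EHF differed from scramble by 0.27 ± 0.06 in ETX (SE of the fit), by -2.0 ± 0.06 in shCPT-1, a 4.0-fold lower level, and by -3.65 ± 0.06 in shCPT-2, a 12.6-fold lower level. Between the knockdowns EHF was 3.14-fold lower in shCPT-2 than in shCPT-1, and against ETX it was 15.2-fold lower in shCPT-2 and 4.83-fold lower in shCPT-1. Because the shCPT-2 arrays lay under the array medians, the sizes of all 3 folds that involve shCPT-2 (12.6, 3.14 and 15.2) are uncertain. So the hairpins and the inhibitor lay on opposite sides of scramble on this probe set.

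The other kept EHF probe set, 232361_s_at, had the same order of groups over a narrower range, with means of 6.49 ± 0.11 in ETX, 5.1 ± 0.04 in shCPT-1, 4.56 ± 0.06 in shCPT-2 and 6.32 ± 0.16 in scramble (SD, n = 3 each). Its differences from scramble were 0.17, -1.22 and -1.76, and its ETX arrays overlapped those of scramble. It passed the array median on 5 of 12 arrays only. The remaining 4 EHF probe sets lay under the medians on all arrays. Among them 232360_at still read 5.89 in ETX, 4.57 in shCPT-1, 4.43 in shCPT-2 and 5.68 in scramble (group means). In such bulk samples, fewer cells that carry a transcript and less of it per cell cannot be told apart.

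SPDEF, an ETS factor of secretory epithelium, was lower than scramble in all 3 other groups. Its probe set 220192_x_at had 8.65, 8.65 and 8.62 in ETX. It had 8.4, 8.43 and 8.33 in shCPT-1. It had 7.69, 7.57 and 7.65 in shCPT-2, against 9.65, 9.54 and 9.42 in scramble. The 4 groups did not overlap, with scramble highest, then ETX, shCPT-1 and shCPT-2. The level was 1.86-fold lower in ETX (-0.9 ± 0.06), 2.22-fold lower in shCPT-1 (-1.15 ± 0.06) and 3.73-fold lower in shCPT-2 (-1.9 ± 0.06) than in scramble. The step between the knockdowns, -0.75 in shCPT-2 against shCPT-1, was wider than that of -0.25 in shCPT-1 against ETX.

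All 5 SPDEF probe sets were kept and all 5 were lower than scramble in every group, by unequal amounts. Next to 220192_x_at came 214404_x_at, at -0.59 in ETX, -0.79 in shCPT-1 and -1.3 in shCPT-2, and then 213441_x_at, at -0.4, -0.46 and -0.79 in the same order. The probe sets 213442_x_at and 214403_x_at stayed within -0.26 of scramble. All 5 carry the x suffix, which Affymetrix gives to probe sets whose probes can match other transcripts, and the sizes above are those of the probe set with the largest differences.

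ELF3, the third epithelial member, known for roles in gut and breast epithelium and in inflammation, showed no such split. Its kept probe set 210827_s_at read 6.48, 6.32 and 6.7 in ETX. It read 6.86, 6.77 and 6.72 in shCPT-1. It read 6.67, 6.81 and 6.41 in shCPT-2, against 6.72, 6.69 and 6.95 in scramble. Groups next to each other in the order of levels overlapped throughout, and the differences from scramble were -0.29, 0.0 and -0.16 (SE 0.11). Its levels lay not far above the array medians. Its other 2 probe sets lay under the medians on every array.

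**Figure D1:**
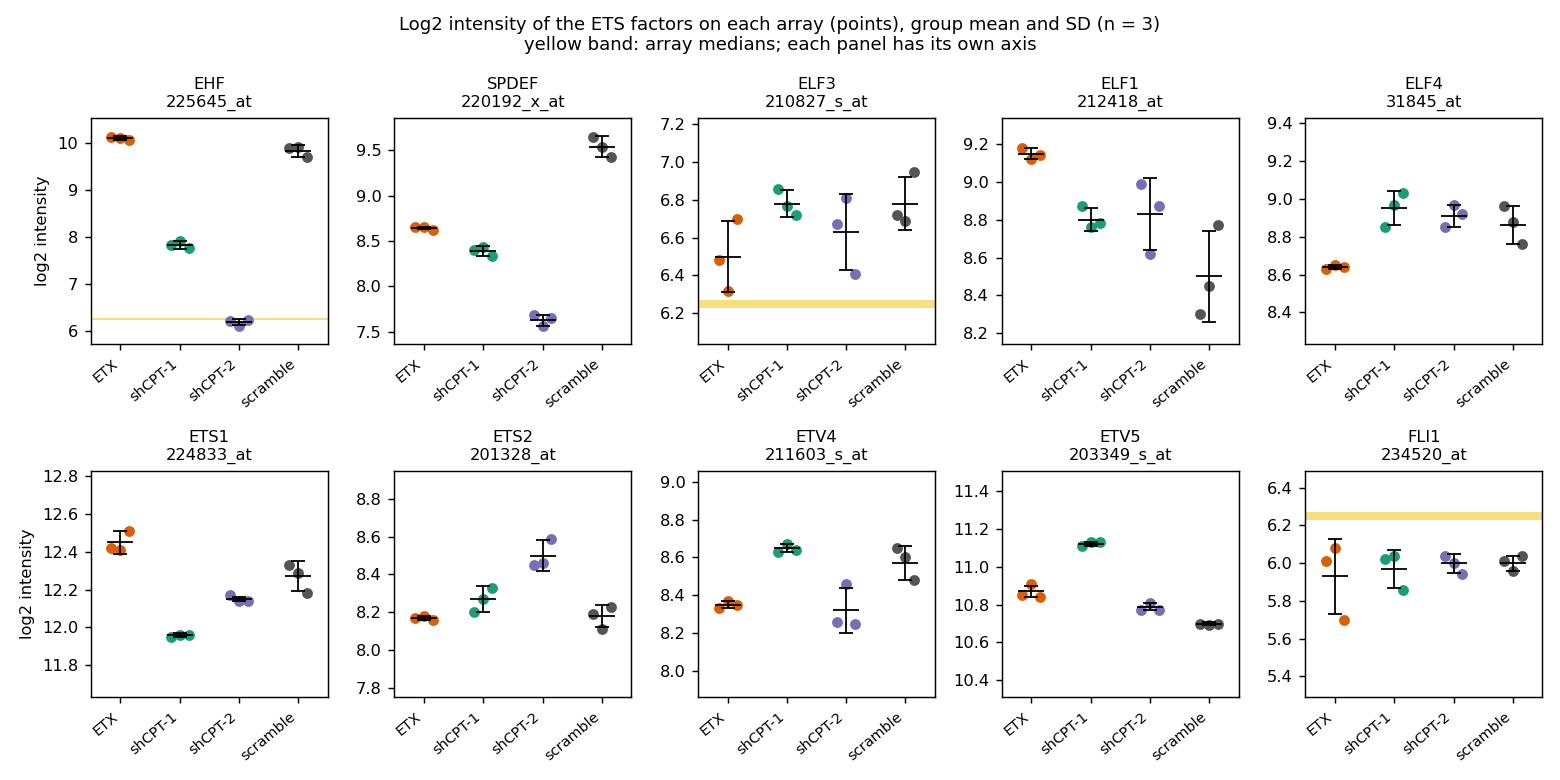
Log2 intensity (vertical axis, own range per panel) of the probe set that stands for each of the 10 ETS factors, with 1 point per array, group mean and SD (n = 3) in ETX, shCPT-1, shCPT-2 and scramble; the yellow band marks the array medians, and FLI1 is shown by its highest probe set. EHF reaches that band in shCPT-2, SPDEF is highest in scramble, and FLI1 lies under the band on all arrays.

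ELF1 and ELF4, close relatives known mainly from blood cells and innate immunity, moved less. ELF1 on 212418_at read 9.18, 9.12 and 9.14 in ETX. It read 8.87, 8.76 and 8.78 in shCPT-1. It read 8.99, 8.62 and 8.87 in shCPT-2, against 8.3, 8.45 and 8.77 in scramble. ETX stood above the other groups without overlap, whereas the knockdowns overlapped each other and scramble reached up to the shCPT-1 range. The differences from scramble were 0.64, 0.3 and 0.33 (SE 0.11). The gene's other kept probe set, 212420_at, lay the other way, at -0.17, -0.32 and -0.46 (SE 0.1). Averaging both put ELF1 at -0.01 in shCPT-1 and -0.07 in shCPT-2, so these arrays give no settled direction for ELF1 in the knockdowns. In ETX the probe sets had opposite signs as well, and over 20 alternative settings of the fit the difference lay between 0.24 and 0.78, so its size there is uncertain.

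ELF4 on 31845_at read 8.63, 8.65 and 8.64 in ETX. It read 8.85, 8.97 and 9.03 in shCPT-1. It read 8.85, 8.97 and 8.92 in shCPT-2, against 8.96, 8.88 and 8.76 in scramble. The ETX arrays lay under all others, by -0.23 ± 0.06 from scramble, and the other 3 groups overlapped. The second probe set, 203490_at, gave -0.24 in ETX. Over 20 alternative settings of the fit the ETX difference lay between -0.28 and -0.14.

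ETS1, a factor of lymphocytes, endothelium and invasive tumour cells, and its close relative ETS2 moved in different groups. ETS1 on 224833_at read 12.42, 12.41 and 12.51 in ETX. It read 11.95, 11.96 and 11.96 in shCPT-1. It read 12.17, 12.14 and 12.14 in shCPT-2, against 12.33, 12.29 and 12.18 in scramble. The groups did not overlap, though the highest shCPT-2 array came within 0.01 of the lowest scramble array. ETS1 stood 0.18 ± 0.05 above scramble in ETX, and -0.31 ± 0.05 and -0.12 ± 0.05 from it in shCPT-1 and shCPT-2. Probe set 1555355_a_at gave wider values of the same signs (0.44, -0.57 and -0.25), and 214447_at gave 0.2, 0.04 and -0.02. As with EHF, ETX lay above scramble and both knockdowns below it on 224833_at, but the lower of the knockdowns was shCPT-1 for ETS1 and shCPT-2 for EHF.

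ETS2, a RAS-responsive factor, was highest in shCPT-2. On 201328_at it read 8.17, 8.18 and 8.16 in ETX. It read 8.2, 8.27 and 8.33 in shCPT-1. It read 8.45, 8.46 and 8.59 in shCPT-2, against 8.19, 8.11 and 8.23 in scramble. The shCPT-2 arrays lay above all others, by 0.32 ± 0.05 from scramble and 0.23 ± 0.05 from shCPT-1, and the other 3 groups overlapped in part. The other kept probe set, 201329_s_at, gave 0.19 in shCPT-2. FLI1, a factor of blood and endothelium, had 6 probe sets with values between 3.38 and 6.08, all under the array medians, so these arrays give it no tested level. ETS1 and FLI1 lie next to each other on chromosome 11 with 0 protein-coding genes between them in the RefSeq gene order.

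ETV4 and ETV5, PEA3 factors whose genes respond to fibroblast growth factor and ERK signalling, were both higher in shCPT-1 than in shCPT-2. ETV4 on 211603_s_at read 8.33, 8.37 and 8.35 in ETX. It read 8.63, 8.67 and 8.64 in shCPT-1. It read 8.26, 8.46 and 8.25 in shCPT-2, against 8.65, 8.6 and 8.48 in scramble. The shCPT-1 and scramble arrays overlapped at the top and the ETX and shCPT-2 arrays at the bottom. Differences from scramble were -0.22, 0.07 and -0.25 (SE 0.06), and shCPT-2 stood -0.32 from shCPT-1. The other probe set gave -0.05, 0.21 and -0.19. Over the alternative settings the difference lay between -0.27 and -0.13 in ETX and between -0.32 and -0.14 in shCPT-2.

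ETV5 on 203349_s_at read 10.85, 10.91 and 10.84 in ETX. It read 11.11, 11.13 and 11.13 in shCPT-1. It read 10.77, 10.81 and 10.77 in shCPT-2, against 10.7, 10.69 and 10.7 in scramble. The 4 groups did not overlap, and shCPT-1 was highest. ETV5 stood 0.17 ± 0.04, 0.42 ± 0.04 and 0.09 ± 0.04 above scramble in ETX, shCPT-1 and shCPT-2, and -0.34 ± 0.04 lower in shCPT-2 than in shCPT-1. The 3 other kept probe sets gave 0.22, 0.3 and 0.26 in shCPT-1 and 0.0, 0.23 and 0.04 in shCPT-2.

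**Figure D2:**
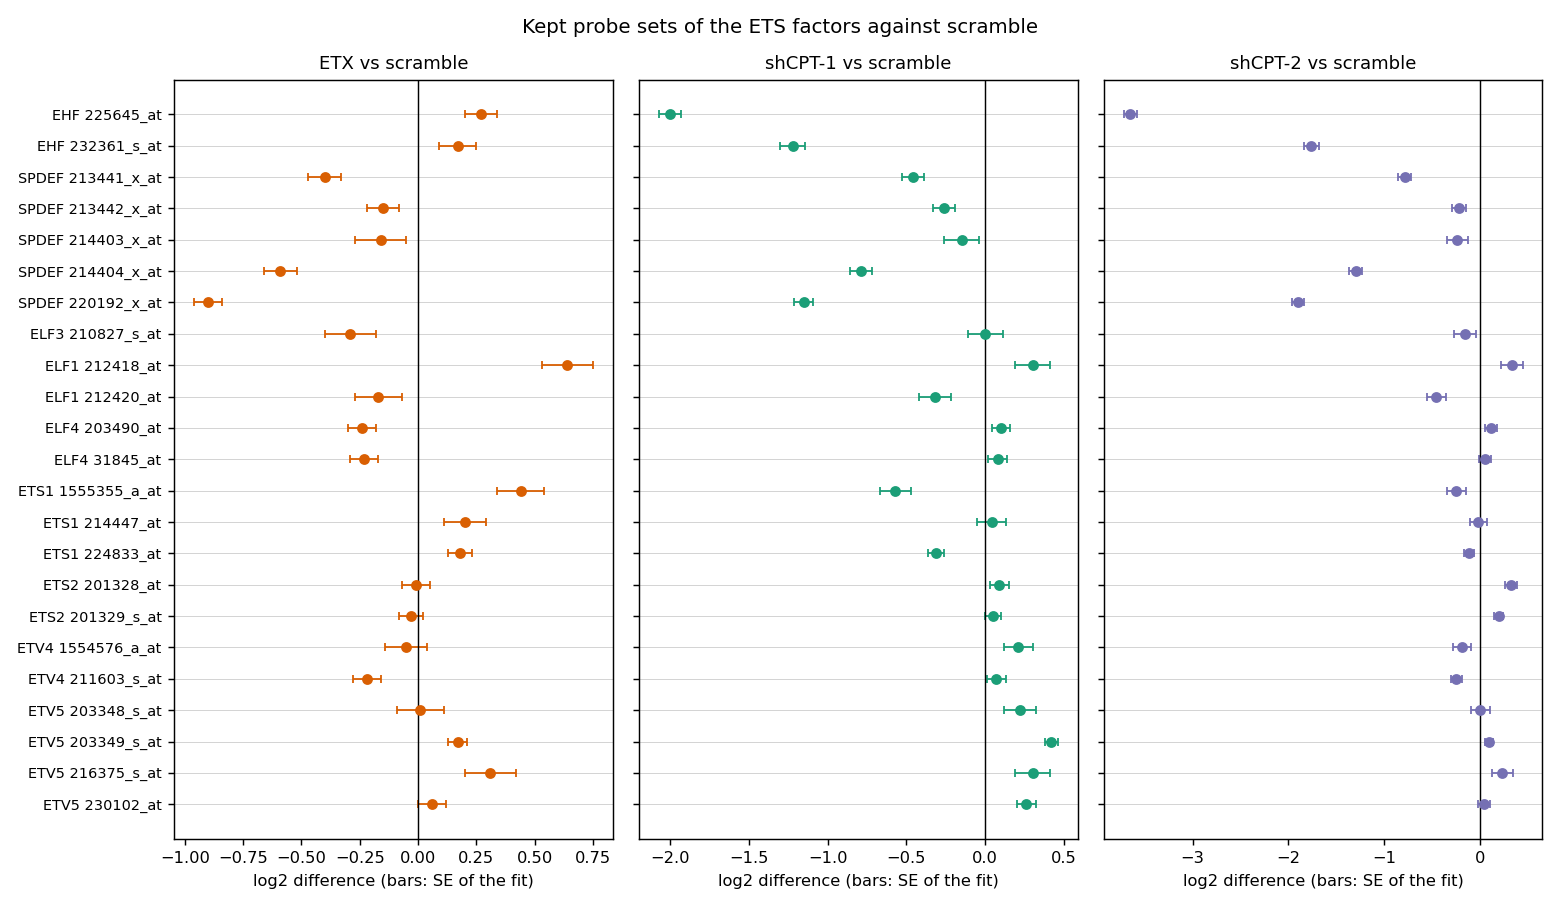
Log2 difference from scramble (horizontal axis, own range per panel) of the 23 kept probe sets of the ETS factors in ETX, shCPT-1 and shCPT-2, with the SE of the fit as bars. The 5 probe sets of SPDEF all lie left of 0 in each panel by unequal amounts, and the 2 of ELF1 lie on opposite sides.

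Counted by the same limma calls as all genes (adjusted p under 0.05), 4 of the 9 tested members were higher and 3 lower in ETX than in scramble, where 21.9% of all tested genes were higher and 19.4% lower. In shCPT-1 against scramble 2 were higher and 3 lower, beside 23.1% and 18.0% of all genes. In shCPT-2 against scramble 2 were higher and 3 lower, beside 25.6% and 20.5%. In shCPT-1 against ETX 3 were higher and 4 lower, beside 22.9% and 19.8% of all genes. In shCPT-2 against ETX 2 were higher and 4 lower, beside 24.9% and 20.9%. In shCPT-2 against shCPT-1 2 were higher and 4 lower, beside 17.7% and 17.8%. Nothing is read from these counts, since the genes were chosen by these values. The count of 2 higher in shCPT-1 stayed within 1.5 times, at 2 or 3, in 7 of the 20 alternative settings (range 1 to 3). That of 2 higher in shCPT-2 did so in 13 (range 1 to 3). Both counts include the unsettled ELF1 in the main fit. ELF1 was called in 6 of the settings in shCPT-1 and in 13 in shCPT-2. Between 1 and 4 members were lower in ETX. The comparisons against scramble share its 3 arrays, so they are not independent of each other. The median difference over the 9 members was -0.01 in ETX, 0.07 in shCPT-1 and -0.12 in shCPT-2, beside -0.013, 0.008 and 0.005 over all tested genes. Differences from scramble of more than 1 on the log2 scale were seen for EHF and SPDEF alone among the 9, on the probe sets that stand for the genes.

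The rest of the family has 18 further genes, of which 11 were tested and ELF5, ERG, ETV2, FEV, SPI1 and SPIC lay under the filter. ETV3L had no probe set under its symbol alone. In ETX 2 of the 11 rose and no other passed, beside 21.9% of all tested genes higher and 19.4% lower. In shCPT-1 3 rose and no other passed, beside 23.1% and 18.0%, and in shCPT-2 2 rose and 2 fell, beside 25.6% and 20.5%. The shares called were thus near or under those of all genes. Their median differences were 0.02, -0.01 and -0.01.

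The widest of these changes was the fall of ETV1, the PEA3 relative of ETV4 and ETV5, in shCPT-2. On 221911_at it read 9.66, 9.58 and 9.71 in ETX. It read 9.93, 9.86 and 9.83 in shCPT-1. It read 8.74, 8.31 and 8.49 in shCPT-2, against 9.58, 9.55 and 9.61 in scramble. The shCPT-2 arrays lay far under the rest, shCPT-1 above the rest, and ETX overlapped scramble. ETV1 fell 2.09-fold in shCPT-2 (-1.07 ± 0.08, limma adjusted p = 8.45e-07), and it was 2.56-fold lower in shCPT-2 than in shCPT-1 (limma adjusted p = 2.11e-07). It rose by 0.29 ± 0.08 in shCPT-1 (limma adjusted p = 0.0152), a call that ended with the actin covariate and without shCPT-1 replicate 1 (highest adjusted p = 0.108), and in ETX its difference of 0.07 did not pass (limma adjusted p = 0.549). The other kept ETV1 probe sets gave smaller values in shCPT-2, of -0.27, -0.24 and -0.17. On the probe sets that stand for them, the 3 PEA3 genes thus all had their highest group mean in shCPT-1. Each was lower in shCPT-2 than in shCPT-1. The other kept ETV1 probe sets had their highest mean in ETX, as did 216375_s_at of ETV5 (7.9, against 7.89 in shCPT-1).

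ETV6, a repressor of the family, read 8.09, 7.92 and 7.88 in shCPT-2, against 8.49, 8.59 and 8.34 in scramble. It fell there by 0.51 ± 0.07 on the log2 scale (limma adjusted p = 6.17e-05), with the shCPT-2 arrays under all others, and it differed by 0.05 in ETX and -0.01 in shCPT-1. It was also -0.5 lower in shCPT-2 than in shCPT-1 (limma adjusted p = 0.000117). Those values are from 225764_at, and the other kept ETV6 probe sets gave unlike patterns. In ETX, shCPT-1 and shCPT-2, 235056_at gave 0.16, 0.07 and -0.42, and 239740_at gave -0.31, -0.33 and -0.44. The probe set 239364_at stood at 0.02 in shCPT-2. ELK3, a serum response partner, rose in ETX (0.44 ± 0.06, limma adjusted p = 0.000302) and in shCPT-2 (0.3 ± 0.06, limma adjusted p = 0.00244). In shCPT-1 it stood 0.16 above scramble without passing (limma adjusted p = 0.0742). It passed there in 5 of 20 alternative settings (lowest limma adjusted p = 0.0114), and its other kept probe set, 206127_at, stood at 0.27. GABPA, a regulator of mitochondrial and ribosomal genes, rose by 0.3 ± 0.08 in ETX (limma adjusted p = 0.00804) and by 0.28 ± 0.08 in shCPT-1 (limma adjusted p = 0.011), where the call ended with the mean of its probe sets and with the actin covariate. Its rise of 0.21 in shCPT-2 (limma adjusted p = 0.0383) ended in 10 of 20 settings, among them those without any 1 scramble array, without shCPT-1 replicate 2 and without shCPT-2 replicate 1 or 3 (highest adjusted p = 0.166). ERF, a repressor held in check by ERK, rose by 0.26 ± 0.08 in shCPT-1 (limma adjusted p = 0.0226), a call that ended with the mean of its probe sets and without scramble replicate 1 or 3 or shCPT-1 replicate 2 (highest adjusted p = 0.124), and it stood -0.2 and -0.01 from scramble in ETX and shCPT-2. ELF2, ELK1, ELK4, ETV3, ETV7 and SPIB passed in none of the 3 comparisons against scramble, with differences between -0.22 and 0.16, although each of them except SPIB passed in 1 or more of the 20 alternative settings.

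**Figure D3:**
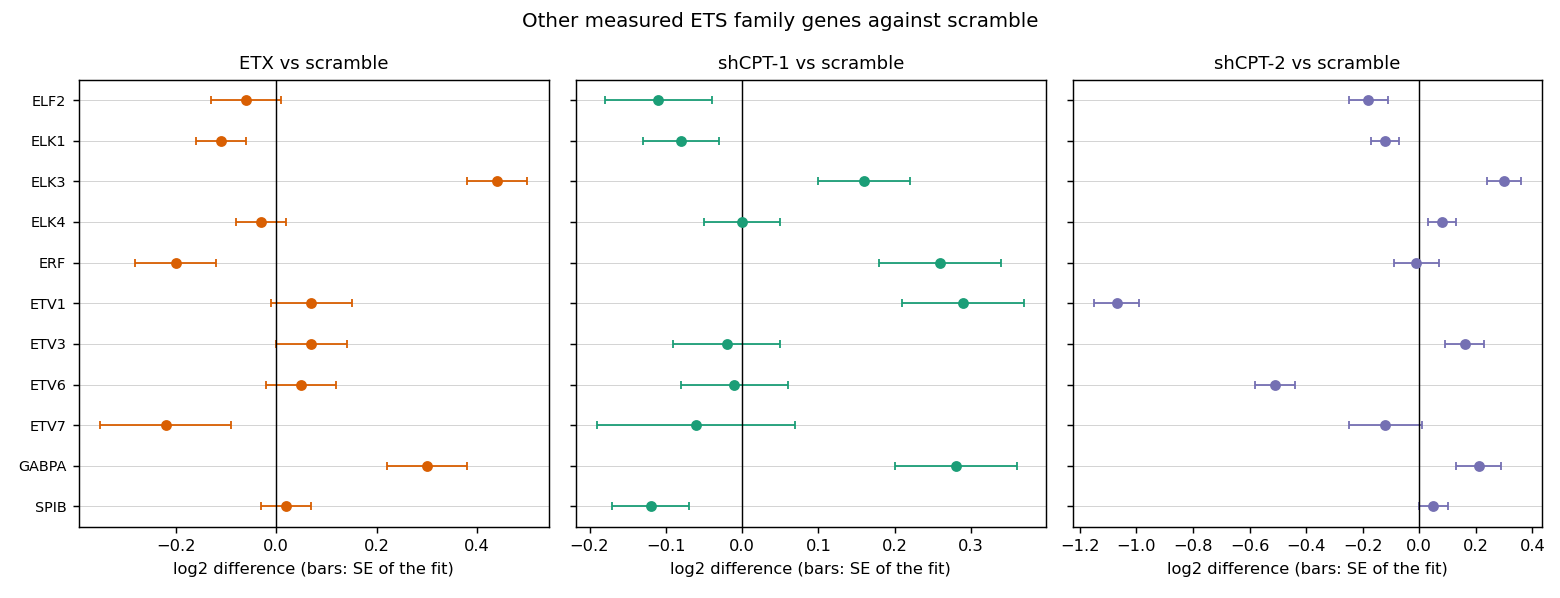
Log2 difference from scramble (horizontal axis, own range per panel) of the 11 other tested ETS family genes in ETX, shCPT-1 and shCPT-2, with the SE of the fit as bars. ETV1 at -1.07 and ETV6 at -0.51 stand apart in shCPT-2, and no gene lies below -0.22 in ETX.

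Genes known to work with ETS proteins were followed through lists written from general knowledge. Of 17 partners and regulators 13 were tested. In ETX 1 rose and 3 fell (median -0.04), beside 21.9% of all tested genes higher and 19.4% lower. In shCPT-1 3 rose and 4 fell (median -0.08), beside 23.1% and 18.0%, and in shCPT-2 7 rose and 4 fell (median 0.14), beside 25.6% and 20.5%. FOSL1, an AP-1 subunit, fell in all 3 (-0.66, -0.5 and -0.73). DET1, part of the COP1 ubiquitin ligase that degrades PEA3 factors, rose in shCPT-1 (0.51, limma adjusted p = 4.07e-05) and shCPT-2 (0.58, limma adjusted p = 1.08e-05), as did GABPB2, a partner of GABPA (0.42 and 0.54). COP1 itself fell in shCPT-1 (-0.25, limma adjusted p = 0.0205) and stood at -0.09 in shCPT-2 without passing (limma adjusted p = 0.387). CIC, a repressor of PEA3 genes, fell in ETX (-0.34 ± 0.07, limma adjusted p = 0.0018) and shCPT-2 (-0.2), and CBFB, partner of the RUNX factors that bind beside ETS1, fell in ETX (-0.35) and shCPT-1 (-0.16) and rose in shCPT-2 (0.31).

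Genes that report ERK signalling, which acts on many ETS proteins, were tested for all 13 listed. In ETX 7 rose and 3 fell (median 0.14), beside 21.9% of all tested genes higher and 19.4% lower. In shCPT-1 6 rose and 3 fell (median 0.11), beside 23.1% and 18.0%, and in shCPT-2 2 rose and 7 fell (median -0.22), beside 25.6% and 20.5%. The knockdowns differed directly, with 10 of 13 genes lower in shCPT-2 than in shCPT-1 and no other passing (median -0.37), beside 17.8% of all tested genes. The PEA3 genes ETV1, ETV4 and ETV5 were lower in that same comparison. Within the list DUSP5, an ERK phosphatase, rose in ETX (0.6), shCPT-1 (1.18 ± 0.06, limma adjusted p = 3.89e-08) and shCPT-2 (0.78). IER3 fell in shCPT-1 (-0.47) and shCPT-2 (-0.84 ± 0.04, limma adjusted p = 1.49e-08), and the cyclin CCND1 fell in ETX (-0.26), shCPT-1 (-0.37) and shCPT-2 (-0.61). DUSP4 fell in shCPT-2 (-0.61). MYC rose in ETX (1.2 ± 0.18, limma adjusted p = 0.000325), shCPT-1 (0.71) and shCPT-2 (1.07), where most of the list fell.

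Of 16 genes reported as targets of ETS1 or ETS2, 12 were tested. In ETX 4 rose and 5 fell (median -0.1), beside 21.9% of all tested genes higher and 19.4% lower. In shCPT-1 2 rose and 5 fell (median -0.21), beside 23.1% and 18.0%, and in shCPT-2 3 rose and 3 fell (median 0.0), beside 25.6% and 20.5%. MMP9, a gelatinase, fell in every group (-1.23, -1.72 and -1.79 ± 0.10), with limma adjusted p = 3.52e-08 in shCPT-2. The collagenase gene MMP1 rose in ETX (0.81) and shCPT-2 (0.63) and fell in shCPT-1 (-0.52). ETS1 itself stood 0.18, -0.12 and -0.31 from scramble in those groups. PLAU, also on this list, fell in ETX (-0.95) and rose in shCPT-1 (0.6), opposite to ETS1 in both. CDKN1A rose in ETX (0.36) and in shCPT-1 (0.3). BCL2, an inhibitor of apoptosis, fell in ETX (-0.18) and shCPT-1 (-0.29) and rose in shCPT-2 (0.36). Both knockdown calls ended with the mean of its probe sets (adjusted p of 0.173 and 0.485). KDR, an endothelial receptor on this list and on the endothelial one, rose in ETX (0.39, limma adjusted p = 0.0121) and fell in shCPT-1 (-0.64, limma adjusted p = 0.000435) and shCPT-2 (-0.45 ± 0.11, limma adjusted p = 0.004), where its means of 5.99 and 6.18 lay under the array medians. The summed intensity of the 7 endothelial markers was 534 to 551 in ETX and 511 to 533 in scramble. It was 424 to 475 in shCPT-1 and 431 to 451 in shCPT-2. CDH5, VWF and EMCN lay under the medians on all arrays, whereas PECAM1 and TEK lay above them on all 12. PECAM1 was called lower than scramble in shCPT-1 (-0.31) and shCPT-2 (-0.47). The 5 fibroblast markers summed to 445 to 472 in ETX and 506 to 538 in scramble. In shCPT-1 they summed to 499 to 517 and in shCPT-2 to 456 to 470. COL1A2 and LUM lay under the medians on all arrays, whereas COL1A1 lay above them on all 12. Among 5 leukocyte markers PTPRC and CD14 lay under the medians on all arrays, and CD3E and CD79A above them on all 12. The part of these markers in the list counts was not tested.

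Of 16 genes reported as targets of EHF, ELF3 or SPDEF, 11 were tested. In ETX 4 rose and 2 fell (median 0.13), beside 21.9% of all tested genes higher and 19.4% lower. In shCPT-1 3 rose and 2 fell (median 0.14), beside 23.1% and 18.0%, and in shCPT-2 5 fell and no other passed (median -0.12), beside 25.6% and 20.5%. ANGPT1, an angiopoietin, rose in ETX (1.3 ± 0.09, limma adjusted p = 1.46e-06) and fell in shCPT-1 (-1.0 ± 0.09, limma adjusted p = 3.58e-06) and shCPT-2 (-0.83 ± 0.09, limma adjusted p = 1.17e-05), where its means of 5.49 and 5.66 lay under the array medians. CCL20, a chemokine called in all 3 comparisons, lay above the array medians in ETX only (mean 6.66) and passed the filter through that group. Its means of 5.14 in shCPT-1, 5.32 in shCPT-2 and 5.89 in scramble lay under the medians, so its calls say little. PTGS2, the inducible cyclooxygenase, rose 4.16-fold in ETX (2.06 ± 0.10, limma adjusted p = 5.49e-08) and fell in shCPT-2 (-0.4). AGR2, a secretory protein of mucous glands, rose in ETX (0.73, limma adjusted p = 0.000833) and fell in shCPT-2 (-0.47 ± 0.13, limma adjusted p = 0.00798). PLAU, urokinase, fell in ETX (-0.95) and rose in shCPT-1 (0.6), and in shCPT-2 it stood at 0.03 without passing (limma adjusted p = 0.654). TGFBR2, which EHF is reported to repress, rose in shCPT-1 (0.51, limma adjusted p = 0.00999), a call that ended with the actin covariate (adjusted p = 0.0523). It stood at 0.36 in ETX and 0.12 in shCPT-2 without passing (limma adjusted p of 0.0544 and 0.507).

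Of 22 genes of epithelial identity 14 were tested. In ETX 1 rose and 4 fell (median -0.06), beside 21.9% of all tested genes higher and 19.4% lower. In shCPT-1 4 rose and 4 fell (median 0.05), beside 23.1% and 18.0%, and in shCPT-2 3 rose and 4 fell (median -0.04), beside 25.6% and 20.5%. The keratin KRT8 fell in ETX (-0.46) and shCPT-2 (-0.2) and rose in shCPT-1 (0.28), and its partner KRT18 fell in ETX (-0.43) and shCPT-2 (-0.31). KRT7 fell in ETX (-0.24), shCPT-1 (-0.4) and shCPT-2 (-0.54). The claudin CLDN4 rose 3.08-fold in shCPT-1 (1.62 ± 0.15, limma adjusted p = 3.5e-06) and by 0.81 in shCPT-2, and KRT19 rose by 0.73 and 0.43 in the same groups. The factor GRHL1 rose in shCPT-2 (0.44). GATA3, a luminal factor, fell in shCPT-1 (-0.33) and, in a call that ended with the mean of its probe sets and without ETX replicate 2, in ETX (-0.16).

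**Figure D4:**
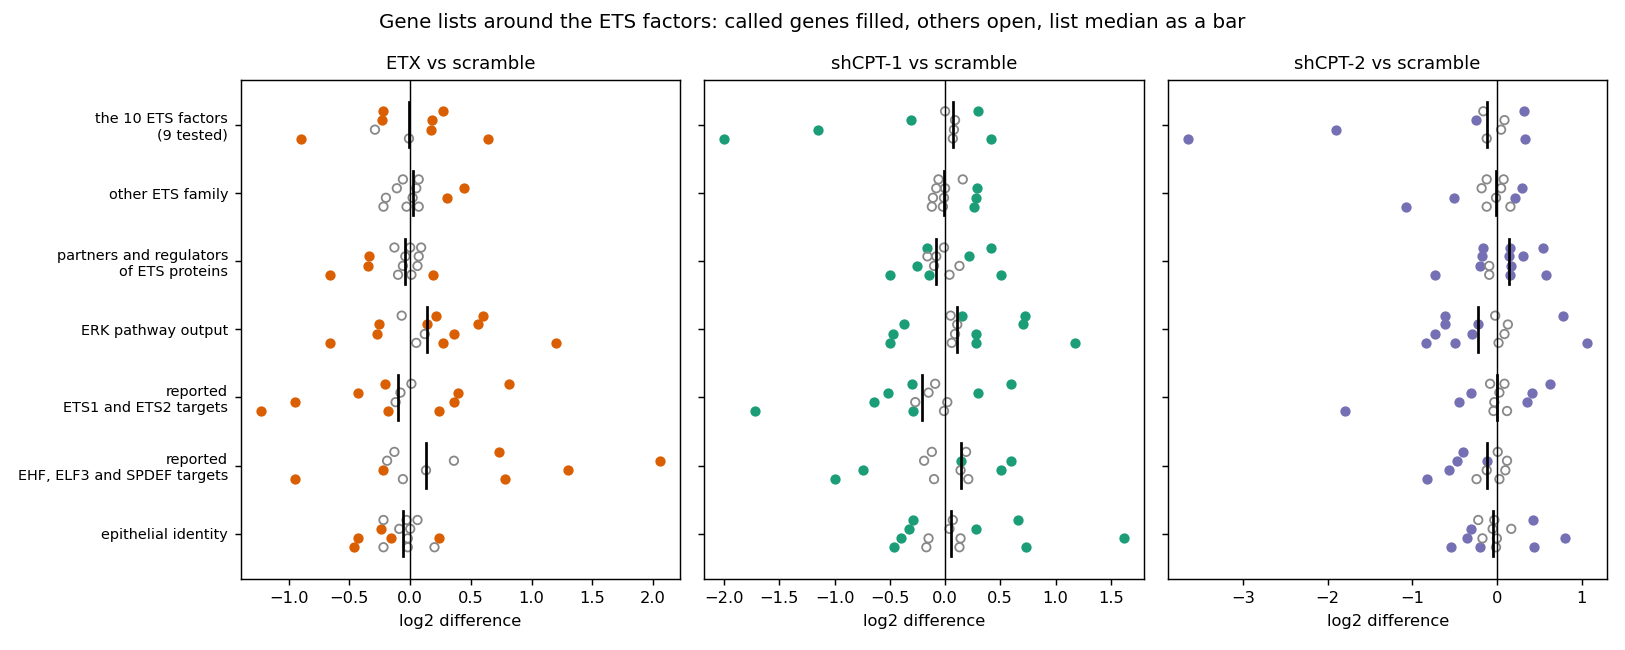
Log2 difference from scramble (horizontal axis, own range per panel) of every tested gene on the 7 lists in ETX, shCPT-1 and shCPT-2, filled where called and open otherwise, with the list median as a bar. The ERK output list has its median at 0.14 in ETX and at -0.22 in shCPT-2, and EHF is the leftmost point in both knockdowns.

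The falls of EHF and SPDEF were set beside the genes around them in the RefSeq gene order. The 5 tested genes on each side of EHF on chromosome 11 stood between -1.04 and 0.29 in shCPT-1 and between -0.58 and 0.37 in shCPT-2, against -2.0 and -3.65 for EHF. The nearest tested ones, CAT (catalase) and APIP, stood at 0.13 and 0.29 in shCPT-1 and at -0.44 and 0.14 in shCPT-2, and the lowest was LMO2, at -1.04 and -0.58. The ETS gene ELF5 lies next to EHF with 0 protein-coding genes between and was under the medians on all arrays. Around SPDEF on chromosome 6 the 10 tested genes stood between -0.39 and 0.42 in ETX, -0.12 and 0.28 in shCPT-1, and -0.62 and 0.12 in shCPT-2, with SMIM29 the lowest in ETX and shCPT-2. SPDEF at -0.9, -1.15 and -1.9 lay below all of them in each comparison.

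**Figure D5:**
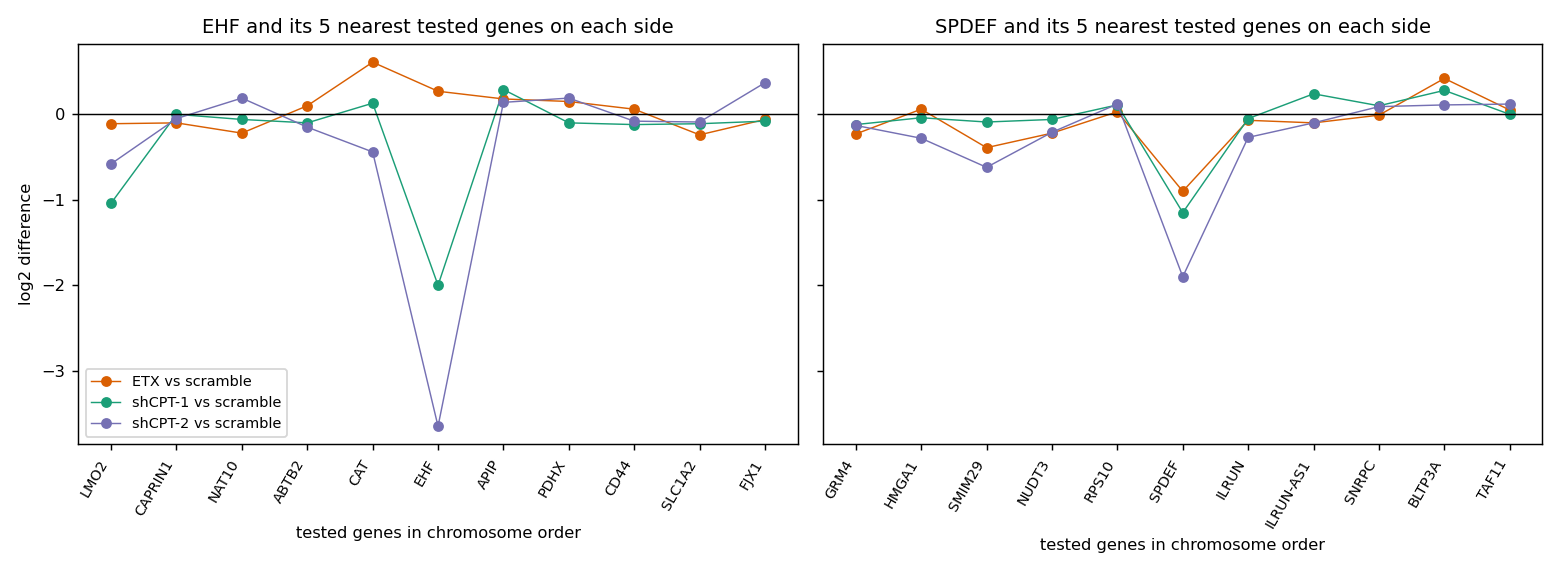
Log2 difference from scramble (vertical axis) of EHF (left) and SPDEF (right) and of the 5 nearest tested genes on each side, in chromosome order (horizontal axis), for ETX, shCPT-1 and shCPT-2. EHF drops to -3.65 and SPDEF to -1.9 in shCPT-2, while their neighbours stay at or above -0.62 there.

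Likeness to EHF and SPDEF was measured as the root mean square difference over the 12 arrays after each of 12866 genes outside the family was centred on its scramble mean. The pattern nearest to EHF was that of PLCB1, a phospholipase C (0.52), with differences of 0.22 in ETX, -2.98 in shCPT-1 and -3.88 in shCPT-2. COL4A5, a basement membrane collagen (0.58), and KYNU, an enzyme of tryptophan breakdown (0.62), came next, at 0.06, -2.96 and -3.16 for COL4A5 and 0.19, -1.87 and -2.43 for KYNU. PLCB1 lay under the array medians in shCPT-2 (mean 5.85) and COL4A5 in shCPT-1 and shCPT-2 (means 5.07 and 4.87), so these sizes are uncertain. Nearest to SPDEF were PMEPA1, a target and inhibitor of TGF-beta signalling (0.28), with -1.23, -0.72 and -1.77, SHROOM2 (0.32), with -0.56, -0.98 and -1.4, and NREP (0.34), with -0.51, -1.02 and -1.38. Unlike SPDEF, PMEPA1 was lower in ETX than in shCPT-1.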

How the data were processed

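The deposited intensity values are linear, with 1 value for each probe set on each array, and were made by the authors with RMA per the submitters' processing notes. Its version is not given in the sources used here. Probe sets were named from the platform annotation and checked against RefSeq: 41091 had 1 symbol, 1801 several and 11721 none, and 62 were controls. Log2 intensities were fitted with limma 3.58.1 (R 4.3.3; lmFit and eBayes; degrees of freedom 8 residual, 4.117 prior) over all 12 arrays, two-sided, with Benjamini-Hochberg adjustment over 12886 genes in each of 6 comparisons. The number of arrays limits the precision. The ETS factors, the gene lists and the alternatives were chosen with earlier results of these data known. The text names all 10 factors, every tested gene of the rest of the family, the targeted genes and the 3 genes most like EHF and SPDEF. Of each further list it names up to 4 called genes with the smallest p in each comparison against scramble. Those given only here are JUNB (0.19 in ETX), SPRED1 (0.56 in ETX), SRF (0.22 in shCPT-1) and CLDN7 (0.66 in shCPT-1). COP1 and cell type markers were named in addition. The chromosomal neighbours were chosen after their values were seen. Deviations of same-numbered arrays correlated between -0.46 and 0.33, with no common sign. Differently numbered arrays were not compared in this way, so this range does not settle whether replicate numbers pair arrays. Alternatives were a fit without the filter, the mean of kept probe sets, normalization, centring, eBayes options, only the groups compared, the actin covariate, a replicate block and leaving out each array. The steps were tested on simulated data. Figures used Python 3.11.15 with matplotlib 3.10.9.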

Additional observations from a re-analysis of the deposited data

How the results depend on the processing

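The 20 alternative settings kept the counts of called genes in all 6 comparisons within 1.5 times, between 3832 and 5576 in ETX against scramble and between 4942 and 6102 in shCPT-2 against scramble. As a description, EHF lay between -3.72 and -2.71 in shCPT-2 and SPDEF between -0.95 and -0.44 in ETX over the 20 settings, with the smallest sizes from the mean of kept probe sets. Of 1080 recomputed differences of the members 1043 moved by less than 1 SD and 35 moved more. The other 2 were called in the main fit and changed sign: with the mean of kept probe sets ELF1 in shCPT-1 was at -0.01 and ELF1 in shCPT-2 at -0.07. Sign changes of differences not called in the main fit are counted among the 1043 and 35. ELF4 in shCPT-2, at 0.05 in the main fit, went down to -0.01, for example. The number of other ETS family genes called in ETX against scramble, 2, became 4 with the mean of kept probe sets and 4 with quantile normalization again, and 2 to 4 when single arrays were left out. It became 1 in place of 3 in shCPT-1 against scramble and 5 in place of 2 in shCPT-2 against ETX with the actin covariate. Leaving out single arrays gave 2 to 4 in shCPT-2 against ETX, highest without ETX replicate 3, and 2 to 5 in shCPT-2 against shCPT-1, where 4 were called, lowest without shCPT-1 replicate 2 or shCPT-2 replicate 1. The causes were not tested. A replicate block called 5075 genes in ETX, 5063 in shCPT-1 and 5748 in shCPT-2 against scramble. It left each count of members called at the same number and gave 5 in place of 4 other family genes in shCPT-2 against scramble. Whether the replicate numbers pair the arrays is not settled. Genes under the array medians, FLI1 and ELF5 among them, cannot be judged at this signal over background.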
